A study of Mus musculus with 16 samples.

Results

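The 10 genes described here are those of the class II pathway of the mouse major histocompatibility complex: H2-Aa, H2-Ab1, H2-Eb1, H2-DMa, H2-DMb1, H2-DMb2, H2-Oa, H2-Ob, Cd74 and Ciita. They were chosen by gene symbol. All 10 were found among the 49492 genes of the count table, and all 10 were among the 15240 genes that passed the filter on low counts.

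RNA was sequenced from splenic germinal centre B cells of 3-month-old C57BL/6J mice, 8 days after an injection of sheep red blood cells as antigen. Mutant mice were Ezh2(Y641F)fl/wt;Cγ1-cre+/- and control mice were Cγ1-cre+/-, so both genotypes carried Cre and the controls lacked the Y641F allele of Ezh2, the methyltransferase of lysine 27 of histone H3. Cre expressed from the Cγ1 locus acts in B cells once that locus is transcribed, which in this tissue is mostly after activation. From B220+ FAS+ CD38- cells, centroblasts were taken as CXCR4+ CD86- and centrocytes as CXCR4- CD86+. The 4 groups were mutant centroblasts, control centroblasts, mutant centrocytes and control centrocytes, with 4 libraries each. Within each group the libraries carried 1 litter label, and they were given in the design as biological replicates.

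Class II molecules carry peptides from the endosomes to the cell surface, where CD4+ T cells read them. The alpha and beta chains assemble on the invariant chain (Cd74), proteases trim that chain, and the H2-M heterodimer then exchanges its last fragment for peptide, held in check by H2-O. Ciita is the coactivator that the promoters of all these genes share. Germinal centre B cells use class II to present captured antigen to follicular helper T cells, which takes place mainly at the centrocyte stage. Mice of this strain have no working I-E alpha chain gene, so the H2-Eb1 chain lacks its usual partner.

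In the GRCm38 annotation, the 8 H2 genes lay within 224 kb of chromosome 17, from position 34092340 to 34316674. The genes of this family are known for promoters with an X box, bound by the RFX complex, and a Y box (an inverted CCAAT), bound by NF-Y, on which Ciita assembles. In the RefSeq windows from 250 bases before to 50 bases after each start, 7 of the 10 genes were matched. The Y box letters TGATTGG were found on either strand in the windows of 6 of them, against 7.82% of all 32851 windows. The X box letters, AAC and ATGATG with any 2 bases between them, were found on either strand in 4 of them, against 0.137% of all windows, and both motifs stood together in 9 windows of the whole table, or 0.0274%. The motif letters were chosen after the windows of these genes had been read, so the shares are a description. The following stretches of 70 bases are as RefSeq gives them for GRCm38.p6 on chromosome 17, with each motif in capitals. They show how the pair of boxes is spaced in H2-Eb1, H2-DMb1, H2-DMb2 and H2-Ob, and the Y box alone in H2-Aa and H2-Oa. H2-Aa is on the minus strand (chr17:34287859-34287928), and the others are on the plus strand: H2-Eb1 (chr17:34305751-34305820), H2-DMb1 (chr17:34153073-34153142), H2-DMb2 (chr17:34145102-34145171), H2-Ob (chr17:34238791-34238860) and H2-Oa (chr17:34092279-34092348).
H2-Eb1: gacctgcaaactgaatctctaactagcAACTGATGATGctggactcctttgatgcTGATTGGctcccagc
H2-DMb1: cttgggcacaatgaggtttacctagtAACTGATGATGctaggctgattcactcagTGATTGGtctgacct
H2-DMb2: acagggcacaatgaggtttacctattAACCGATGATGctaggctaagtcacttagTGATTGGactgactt
H2-Ob: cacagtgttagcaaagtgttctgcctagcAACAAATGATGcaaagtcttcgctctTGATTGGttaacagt
H2-Aa: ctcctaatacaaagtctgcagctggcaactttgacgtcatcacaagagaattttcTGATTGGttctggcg
H2-Oa: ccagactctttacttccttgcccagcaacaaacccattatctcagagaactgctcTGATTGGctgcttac

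The X and Y boxes were 17 bases apart in H2-Eb1, 18 in H2-DMb1 and in H2-DMb2, and 15 in H2-Ob. H2-Aa and H2-Oa held the Y box letters and not these X box letters. The windows of H2-DMa held neither set of letters. The sequences of H2-DMb1 and H2-DMb2 run nearly in parallel, as do those of their transcripts, which were 94.59% identical over 1219 aligned bases. Of the 50-base windows of their transcripts, 22.65% in H2-DMb1 and 21.19% in H2-DMb2 occurred in the other gene, so the counts of this pair are uncertain, while no other pair of the 8 H2 genes shared such a window. Exon overlaps with genes on the other strand were also found for H2-DMa (360 bases with Brd2), H2-Oa (321 bases with the antisense gene BC051537) and Ciita (329 bases with Dexi). Of the genes outside the H2 region, Cd74 lay on chromosome 18 from 60803848 to 60812652 and Ciita on chromosome 16 from 10480059 to 10528418. Whether the counting used strand is not given in the sources used here, so reads from these stretches cannot be told apart.

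Libraries held 35230563 to 44466911 counted reads. Levels are given in CPM, counts scaled to a library of 1e+06 reads, on library sizes adjusted by the trimmed mean of M values (TMM). Summed over 6 B cell markers the level was 10550.2 to 11671 CPM in mutant and 8805 to 10221 CPM in control centrocytes, and 9479 to 10593 CPM in mutant and 8119.6 to 9169 CPM in control centroblasts, so the genotypes did not overlap in either cell type. Of these 6, Cd79a and Cd79b, which carry the signal of the antigen receptor, were called higher in mutant centrocytes. Their log2 fold changes were 0.50 and 0.55 (edgeR adjusted p = 0.00929 and 0.00553). The share of all genes called higher there was 7.37%. In centroblasts edgeR called 0 of the 6, against 4.06% of all genes higher and 6.4% lower. Without adjustment 4 of the 6 passed 0.05 as higher in mutant centroblasts, against 10.4% of all genes. DESeq2 called 3 of the 6 higher there, against 5.59% of all genes. The sorting markers stood where the labels place them: Cxcr4 averaged 160.4 ± 23.6 CPM in mutant centrocytes and 401 ± 20.9 CPM in mutant centroblasts, and Cd86 averaged 311 ± 57.4 and 163 ± 23.3 CPM in the same groups (SD, n = 4 each). The counts do not separate the Ezh2 alleles, and Ezh2 as a whole averaged 222 ± 32 CPM in mutant and 289 ± 42 CPM in control centroblasts, and 189 ± 15.2 CPM in mutant and 245 ± 15 CPM in control centrocytes (SD, n = 4 each). Libraries numbered 3 and 4 among the mutant centrocytes stood apart in macrophage genes: the summed level of 20 such genes was 96.5, 57.4, 380.2 and 390.3 CPM in mutant centrocyte libraries 1 to 4, against 85.2 to 145 CPM in control centrocytes. The same sum was 40.0 to 122 CPM in mutant centroblasts and 30.6 to 95.1 CPM in control centroblasts. Of that list, Vsig4 had a median of 0 CPM and Marco and Timd4 stayed under 2 CPM in every library, while Hmox1, Cd68 and Csf1r had the highest medians, at 15.5, 13.7 and 10.6 CPM. Among dendritic cell markers Xcr1 and Clec9a stayed at or under 0.295 CPM. Of 9 T cell markers, 8 stayed at or under 1.85 CPM in every library, Cd3e among them at or under 0.364 CPM. The other was the kinase gene Lck, at 108 to 326 CPM, which made up most of the summed list, 293 to 329 CPM in mutant and 216 to 314 CPM in control centrocytes, and 171 to 201 CPM in mutant and 110.3 to 174 CPM in control centroblasts. Lck itself had log2 fold changes of mutant over control of 0.33 in centrocytes (edgeR adjusted p = 0.131) and 0.44 in centroblasts (adjusted p = 0.0644). The summed dendritic cell list, most of it Flt3 and Sirpa, was 142 to 195 CPM in mutant and 93.7 to 107 CPM in control centrocytes, and 115 to 159 CPM in mutant and 90.5 to 98 CPM in control centroblasts. The part of these lists, the B cell markers included, in the class II levels was not tested. In every group, libraries 1 and 2 carried Y-linked transcripts (247 to 371 CPM summed over 4 genes) and libraries 3 and 4 hardly any (0.129 to 1.39 CPM). Genotype and cell type are therefore balanced over that split, and values within each pair of numbers are given beside the pooled results.

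The 10 genes together took 3.54 ± 0.243% of all counted reads in mutant centrocytes, 2.80 ± 0.168% in control centrocytes, 2.38 ± 0.120% in mutant centroblasts and 1.91 ± 0.382% in control centroblasts (SD, n = 4 each). Cd74 alone took 0.653% to 1.99% of a library. Expressed per kb of the longest coding transcript, Cd74 came first in all 4 groups, at 12781 CPM per kb in mutant centrocytes, 9799 in control centrocytes, 8632 in mutant centroblasts and 6719 in control centroblasts. H2-Aa, H2-Ab1 and H2-Eb1, the chains that hold peptide, followed in that order in every group, at 4775, 3745 and 2679.5 CPM per kb in mutant centrocytes and 2410.1, 2008 and 1421 CPM per kb in control centroblasts. H2-DMb2, H2-Ob, H2-DMa and H2-Oa came next, between 125 CPM per kb for H2-Oa in control centroblasts and 503 CPM per kb for H2-DMb2 in mutant centrocytes. Ciita and H2-DMb1 were last, at 85.8 and 74.8 CPM per kb in mutant centroblasts.

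Some neighbours in that order did not differ beyond their spread. The libraries of H2-Aa and H2-Ab1 overlapped in both centroblast groups and those of H2-Ab1 and H2-Eb1 in control centroblasts, where each gene from H2-DMb2 down also overlapped the next. H2-DMa and H2-Oa overlapped in both centrocyte groups. In every group Ciita and H2-DMb1 overlapped, and their order was turned round in control centrocytes. The order of H2-Aa, H2-Ab1 and H2-Eb1 also turns round when levels are set against all merged exons of a gene in place of 1 transcript, so it rests on the length chosen.

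**Figure D1:**
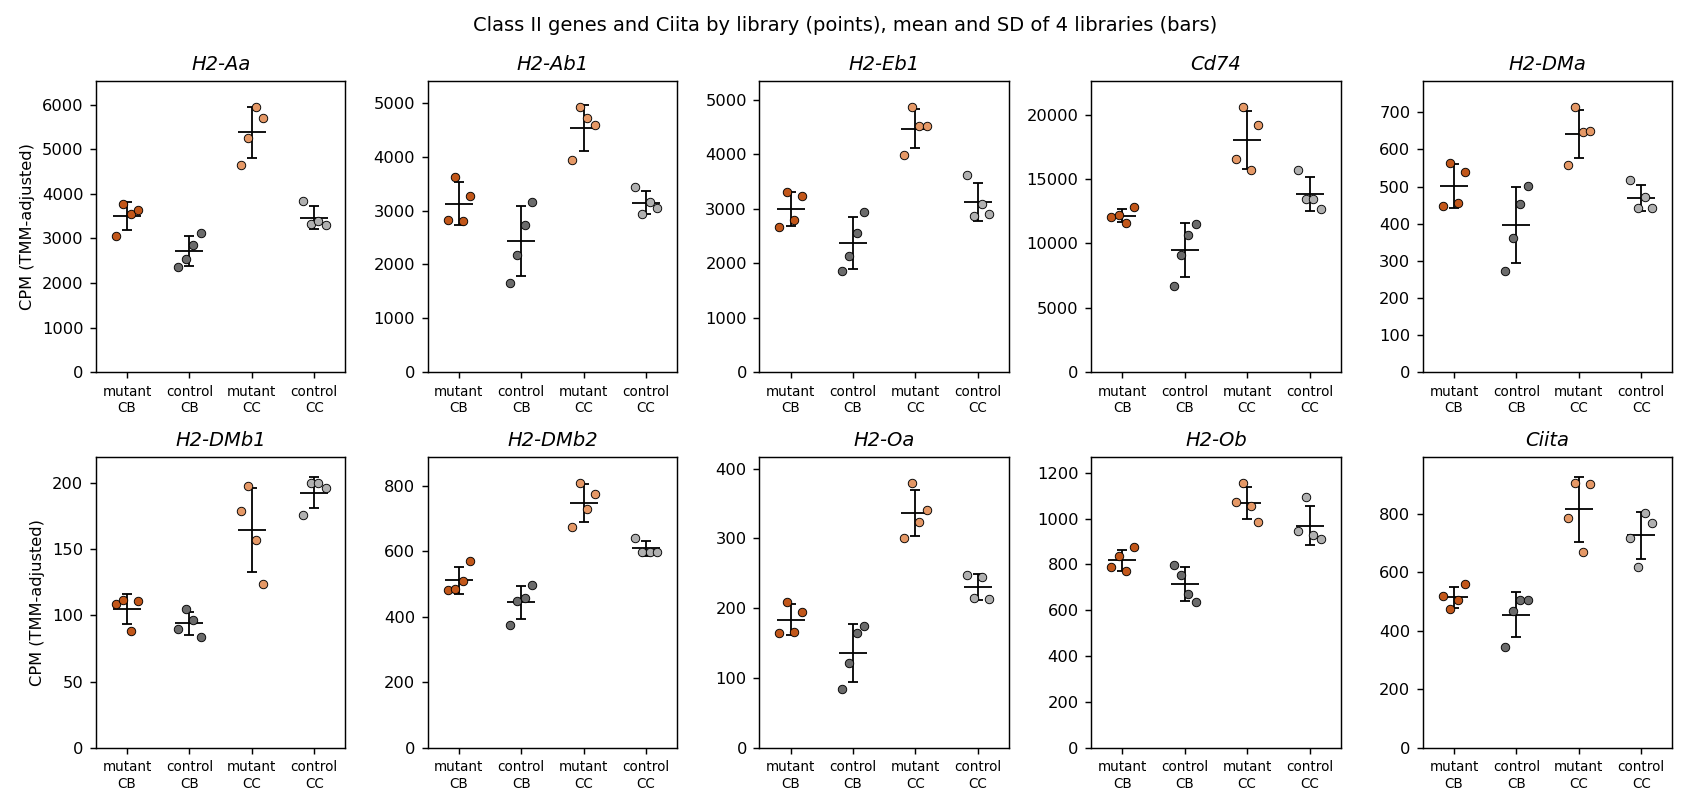
Levels of the 10 genes in CPM on TMM-adjusted library sizes (vertical axes, each from 0) in the 4 libraries of mutant centroblasts (CB), control centroblasts, mutant centrocytes (CC) and control centrocytes. Points are libraries in the order of their numbers, and bars give the mean and SD of 4. For H2-Aa the 4 mutant centrocyte libraries lie between 4642 and 5943 CPM, above every other library, while for H2-DMb1 the control centrocytes have the highest mean.

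Ordered by group mean, 7 of the 10 genes were highest in mutant centrocytes, then in control centrocytes, mutant centroblasts and control centroblasts. Some neighbouring groups overlapped in each of these 7. Mutant and control centroblasts overlapped in all of them but Cd74. The centrocyte groups overlapped in H2-Ob, Cd74 and Ciita, and control centrocytes overlapped mutant centroblasts in H2-Ab1, H2-Eb1 and Cd74. For H2-Aa and H2-DMa mutant centroblasts came before control centrocytes, with overlapping libraries, and for H2-DMb1 control centrocytes came before mutant centrocytes, also with overlap.

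The first comparison asked whether class II RNA differed between mutant and control centrocytes. H2-Aa, H2-Ab1, H2-Eb1, H2-DMa and H2-Oa rose in mutant centrocytes, by 1.37-fold to 1.56-fold, and none of the 10 genes fell. These 5 of 10 genes were called, which here means an adjusted p under 0.05 in edgeR's quasi-likelihood test, whose Benjamini-Hochberg adjustment ran over all 15240 genes, against 7.37% of all genes called higher and 9.15% called lower. The libraries of the 2 genotypes did not overlap for 6 of the 10, all higher in mutant centrocytes, against 11.1% of all genes. The median log2 fold change of the 10 genes was 0.42, against 0.00 for all genes tested. DESeq2 called 7 of them higher, against 9.37% of all genes, adding H2-DMb2 and Cd74. In the fit with library number as a replicate block 4 were called, without H2-DMa.

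H2-Aa, the alpha chain of I-A, had 4642, 5253, 5943 and 5709 CPM in mutant centrocytes, against 3849.9, 3319, 3388 and 3297 CPM in control centrocytes. Each of the 4 mutant libraries was above each control library. The log2 fold change was 0.64 ± 0.12 (SE; edgeR adjusted p = 0.00142). This gene passed the threshold in each of the 16 fits that left out 1 library.

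Its partner chain H2-Ab1 had 3935, 4914, 4723 and 4582 CPM in mutant centrocytes, against 3436, 2941, 3157 and 3056 CPM in control centrocytes. The groups did not overlap, and the log2 fold change was 0.53 ± 0.16 (SE; edgeR adjusted p = 0.0308). H2-Eb1, the beta chain of I-E, had 3995, 4861, 4514 and 4519 CPM in mutant centrocytes, against 3618, 2868, 3092 and 2910.3 CPM in control centrocytes. Here too the groups were apart, with a log2 fold change of 0.52 ± 0.14 (SE; edgeR adjusted p = 0.0152). Among the mutant libraries the first was the lowest for all 3 of these genes, and among the controls the first was the highest.

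Cd74, the invariant chain that escorts class II out of the endoplasmic reticulum, had 16594, 20571, 15711 and 19212 CPM in mutant centrocytes, against 15712, 13419, 13493 and 12644 CPM in control centrocytes. The third mutant library lay just under the first control library, so the groups touched. The log2 fold change was 0.38 ± 0.15 (SE; edgeR adjusted p = 0.082; DESeq2 adjusted p = 0.0477).

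H2-DMa, the alpha chain of the peptide exchanger H2-M, had 558, 713, 646 and 649 CPM in mutant centrocytes, against 517, 443, 471 and 442 CPM in control centrocytes. The groups did not overlap, and the adjusted p was close to the threshold (log2 fold change 0.45 ± 0.15, SE; edgeR adjusted p = 0.0491). The replicate block ended this call (log2 fold change 0.44, edgeR adjusted p = 0.0543). Its partner gene H2-DMb2 had 675, 808, 729 and 774 CPM in mutant centrocytes, against 642, 598, 599 and 597 CPM in control centrocytes. The control libraries were within 1.08-fold of each other and all below the mutant ones, with a log2 fold change of 0.29 ± 0.10 (SE; edgeR adjusted p = 0.0538). H2-DMb1, the second copy of the beta chain gene, was the 1 gene of the 10 with a negative estimate: it had 179, 198, 157 and 124 CPM in mutant centrocytes, against 176, 200, 199.8 and 196 CPM in control centrocytes. Its mutant libraries were spread 1.59-fold, the widest spread of any of these genes in that group, and overlapped the controls (log2 fold change -0.23 ± 0.13, SE; edgeR adjusted p = 0.23).

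H2-Oa, the alpha chain of the H2-M inhibitor H2-O, had 301, 379, 324 and 339.9 CPM in mutant centrocytes, against 248, 215, 244 and 213 CPM in control centrocytes. All mutant libraries were above all controls (log2 fold change 0.55 ± 0.17, SE; edgeR adjusted p = 0.0352). H2-Ob, the beta chain of the same dimer, had 1074, 1155, 1056 and 987 CPM in mutant centrocytes, against 945, 1094, 929 and 909.7 CPM in control centrocytes. These overlapped, and the log2 fold change was 0.14 ± 0.10 (SE; edgeR adjusted p = 0.362).

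Ciita, the coactivator, had 785, 905, 669 and 902 CPM in mutant centrocytes, against 717, 617, 804 and 768 CPM in control centrocytes. The ranges overlapped widely. The log2 fold change was 0.17 ± 0.13 (SE; edgeR adjusted p = 0.417), with a 95% interval from -0.12 to 0.46, which holds no change as well as a rise of the size seen for H2-DMa.

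**Figure D2:**
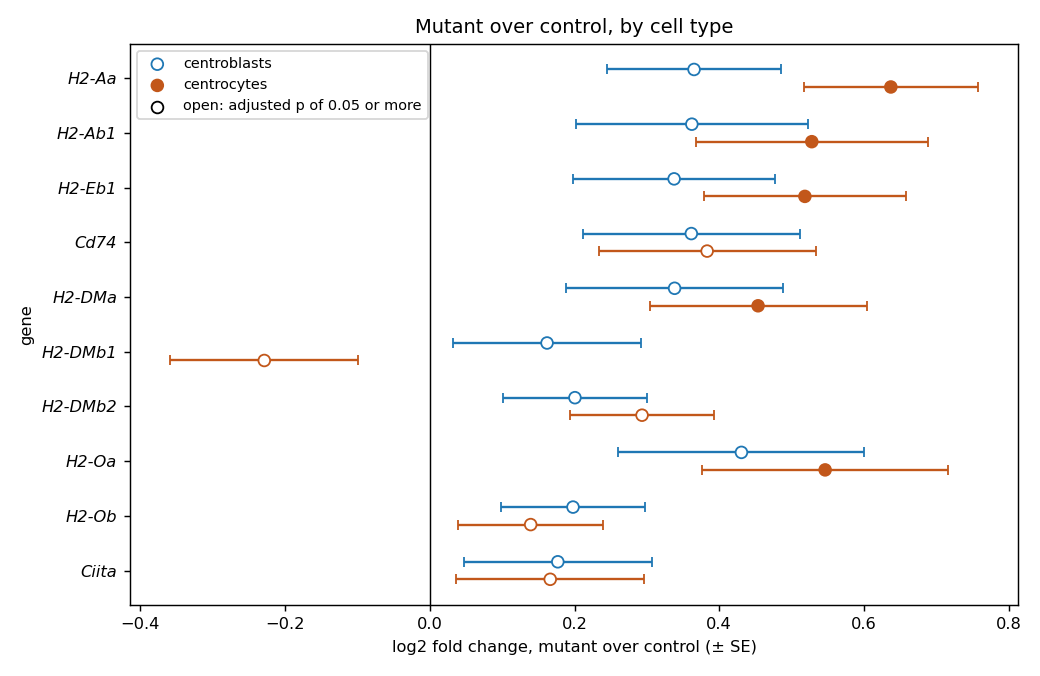
Log2 fold change of mutant over control (horizontal axis, bars ± SE from the edgeR fit on 16 libraries) for each gene (vertical axis) in centroblasts (upper symbol of each pair) and centrocytes (lower symbol). Filled symbols are those with an adjusted p under 0.05: 5 genes in centrocytes and 0 in centroblasts, where all 10 estimates lie above 0.

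The mutant centrocyte libraries that were rich in macrophage genes were numbers 3 and 4, and macrophages express class II. Of 19 macrophage genes tested, 2 were called higher in mutant centrocytes, near the 7.37% of all genes called higher, and 0 lower. Their median log2 fold change was 1.05, against 0.00 over all genes. Without these 2 libraries, H2-Aa was still called (log2 fold change 0.52, edgeR adjusted p = 0.0284), and it was then the 1 gene of the 10 that was, with 495 genes of the whole table called higher, against 1123 with all libraries. The other 4 genes had nearly the same fold changes, at 0.50 for H2-Ab1, 0.51 for H2-Eb1, 0.45 for H2-DMa and 0.57 for H2-Oa, with adjusted p from 0.0824 to 0.184 in the 2 mutant libraries that remained. For H2-DMb1 the estimate was -0.03 without these libraries. Within libraries 1 and 2 alone 0 of the 10 genes were called in edgeR, with H2-Aa at 0.46 and H2-Oa at 0.54, and at numbers 3 and 4 alone the same number of genes as in the pooled test was called, 5, with H2-Aa at 0.79 and H2-Oa at 0.53. In the whole table, 303 genes were called higher within numbers 1 and 2 and 1027 within numbers 3 and 4. Ciita was at 0.33 within numbers 1 and 2 and at -0.01 within numbers 3 and 4.

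A fit that corrected each library for the GC content and length of the transcripts moved the calls the other way. It called 9 of the 10 genes higher in mutant centrocytes, Ciita among them (log2 fold change 0.28, adjusted p = 0.00596), while the estimates of H2-Ab1 and H2-Oa shrank to 0.36 and 0.37. The same correction turned the balance over all genes, with 2846 called higher and 1634 lower, against 1123 and 1394 without it. It moved the median log2 fold change of all genes from 0.00 to 0.08, while that of the 10 genes went down from 0.42 to 0.32. The added calls therefore did not come with larger estimates for the 10 genes as a set. The cause of these differences was not tested. With single libraries left out, 1 to 7 of the 10 genes were called. The count was 1 without mutant centrocyte library 2 or control centrocyte library 2, and 2 without mutant centrocyte library 3 or 4 or control centrocyte library 3 or 4.

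**Figure D3:**
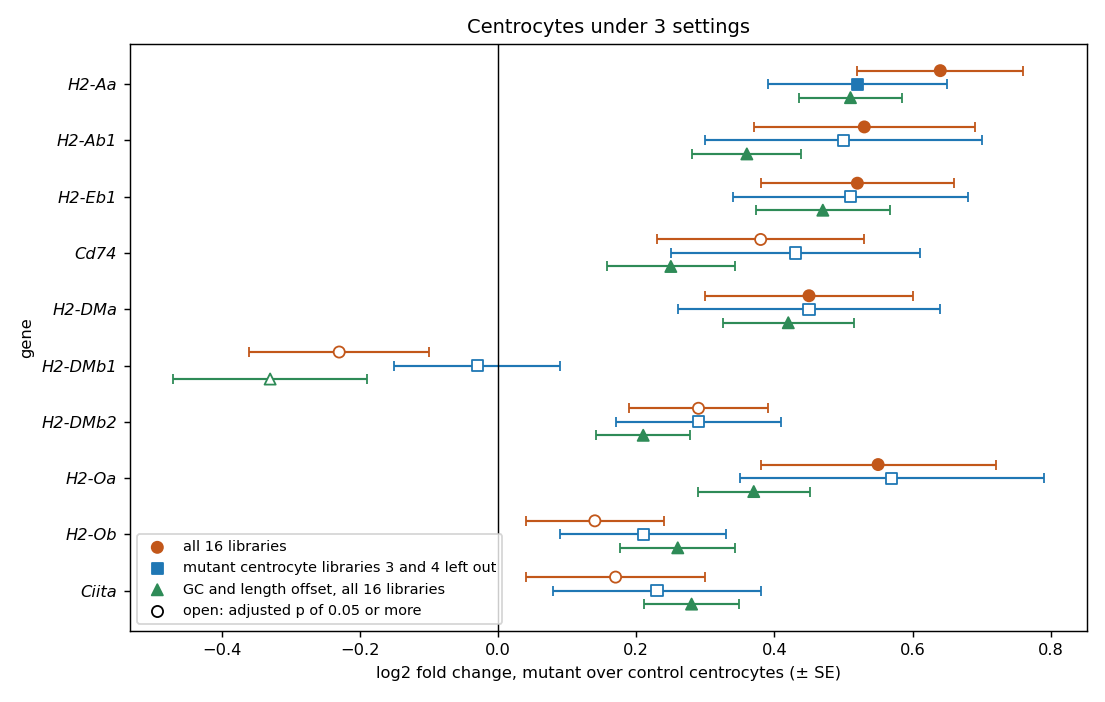
Log2 fold change of mutant over control centrocytes (horizontal axis, bars ± SE) for each gene (vertical axis) in 3 fits: all 16 libraries (circles), without mutant centrocyte libraries 3 and 4 (squares) and with a correction for GC content and length in each library (triangles). Filled symbols have an adjusted p under 0.05. H2-Aa is filled in all 3 fits, and H2-DMb1 is the gene whose estimate is not above 0 in any of them.

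In centroblasts the same comparison called 0 of the 10 genes by edgeR, against 4.06% of all genes called higher and 6.4% lower, although all 10 estimates were above 0. At an unadjusted p under 0.05, 6 of the 10 were higher and 0 lower, against 10.4% and 12.4% of all genes. The median of the 10 log2 fold changes was 0.34, against 0.01 over all genes, and DESeq2 called 1 gene, H2-Aa (adjusted p = 0.0159), against 5.59% of all genes called higher.

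H2-Aa had 3046, 3772, 3557 and 3633 CPM in mutant centroblasts, against 2368, 2529, 2853 and 3125 CPM in control centroblasts. The highest control library was above the lowest mutant library (log2 fold change 0.37 ± 0.12, SE; edgeR adjusted p = 0.0543). Cd74 had 12023, 12173, 11624 and 12866 CPM in mutant centroblasts, against 6669.7, 9108, 10639 and 11479 CPM in control centroblasts. It was the 1 gene of the 10 whose groups did not overlap, against 6.36% of all genes apart in that direction, and its log2 fold change was 0.36 ± 0.15 (SE; edgeR adjusted p = 0.138). H2-Oa had 164, 209, 166 and 194 CPM in mutant centroblasts, against 84.3, 121, 164 and 174 CPM in control centroblasts. Its 4 control libraries were spread 2.06-fold, against 1.28-fold in mutant centroblasts (log2 fold change 0.43 ± 0.17, SE; edgeR adjusted p = 0.125). Ciita had 519.6, 474, 506 and 561 CPM in mutant centroblasts, against 345, 467, 505 and 506 CPM in control centroblasts, and the first control library was the 1 library that stood below the rest (log2 fold change 0.18 ± 0.13, SE; edgeR adjusted p = 0.478).

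The spread among the control centroblasts followed the libraries. Library 1 was the lowest of the 4 control centroblast libraries for 8 of the 10 genes and library 4 the highest for the same 8. H2-Ab1, for example, had 1662, 2182, 2727 and 3165 CPM, a range of 1.90-fold, and H2-DMa had 271, 362, 452 and 500.1 CPM. H2-Ob ran against the others there, with 798, 752, 670.2 and 635 CPM, highest in library 1 and lowest in library 4. H2-DMb1 was the other exception, with 89.7, 105, 96.9 and 84.1 CPM.

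The number of calls moved with the libraries in the fit. Without control centroblast library 4, 6 of the 10 genes were called higher in mutant centroblasts (H2-Aa, H2-Ab1, H2-Eb1, H2-DMa, H2-Oa and Cd74, with log2 fold changes of 0.43 to 0.56), while 854 genes of the whole table were called higher, against 619 with all libraries. Without control centroblast library 1, 0 were called, as with all libraries, and H2-Aa was at 0.30. Without mutant centroblast library 1, H2-Aa was called (0.43, edgeR adjusted p = 0.0451). Within numbers 1 and 2 alone 5 were called, with H2-Ab1 at 0.74 and H2-Oa at 0.85, and within numbers 3 and 4 alone 0 were called, with H2-Ab1 at 0.05 and H2-Oa at 0.10. In the whole table, 1046 genes were called higher within numbers 1 and 2 and 184 within numbers 3 and 4. The correction for GC content and length called 6 of the 10 (H2-Aa, H2-Eb1, H2-DMa, H2-Oa, H2-Ob and Ciita), with 1669 genes of the whole table called higher and 1227 lower, against 619 and 976 without it. With it the median log2 fold change of all genes went from 0.01 to 0.05 and that of the 10 genes from 0.34 to 0.27.

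Whether the genotype acted differently in the 2 cell types was tested by the interaction term. By edgeR 0 of the 10 genes were called, against 0% of all genes, at adjusted p of 0.999 for each, and DESeq2 also called 0 of the 10. At an unadjusted p under 0.05, H2-DMb1 alone passed (difference of log2 fold changes -0.39 ± 0.18, SE; unadjusted p = 0.0428), against 1.83% of all genes lower and 0.984% higher. The differences for the other 9 genes were between -0.06 for H2-Ob and 0.27 for H2-Aa. So the calls made in centrocytes and not in centroblasts do not show that the cell types differ in their response. In bulk RNA, fewer cells of a kind and less RNA per cell cannot be told apart.

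The second comparison was between cell types within a genotype, and it called more of these genes. In mutant cells 9 of the 10 rose in centrocytes over centroblasts, against 8.92% of all genes called higher, and in control cells 8 of 10 rose, against 14.9%. None of the 10 fell in either, against 7.07% of all genes called lower in mutant and 12.9% in control cells. Centrocyte and centroblast libraries were apart for 9 genes in mutant and 7 in control cells, against 11.5% and 15.4% of all genes in that direction. The medians were 0.57 in mutant and 0.45 in control cells, against 0.02 and 0.00 over all genes. Sums of other marker lists differed in the same comparison. The sum of 8 germinal centre B cell markers was lower in centrocytes. It was 2112 to 2307 CPM in mutant centrocytes and 2602 to 2998 CPM in mutant centroblasts. In control cells it was 2161 to 2421 CPM in centrocytes and 3020.4 to 3347 CPM in centroblasts. Between genotypes this sum was lower in mutant centroblasts without overlap, and the centrocytes overlapped. The sum of naive follicular B cell markers over 12 genes was 1918 to 2260.5 CPM in mutant centrocytes and 1123 to 1268 CPM in mutant centroblasts, and 1811 to 2164 CPM in control centrocytes and 874 to 1179.7 CPM in control centroblasts. The sum of plasma cell markers, most of it Jchain, was lower in centrocytes. It was 1154 to 1492 CPM in mutant centrocytes and 1836 to 2503 CPM in mutant centroblasts. In control cells it was 1216 to 1453 CPM in centrocytes and 1926 to 2262 CPM in centroblasts. Its members went both ways. Jchain, Slamf7 and Xbp1 had lower means in centrocytes in both genotypes, while Irf4, Derl3, Prdm1 and Sdc1 had higher means. Tnfrsf17 was lower in mutant and higher in control centrocytes. The T cell list, most of it Lck, was higher in centrocytes, with no overlap in either genotype. The part of these lists in the class II values was not tested. H2-DMa was the gene not called in either genotype (log2 fold change 0.36 in mutant cells, edgeR adjusted p = 0.124, and 0.24 in control cells, adjusted p = 0.257).

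H2-Oa had the largest estimate in mutant cells and the second largest in control cells. Its 301 to 379 CPM in mutant centrocytes stood against 164 to 209 CPM in mutant centroblasts (log2 fold change 0.87 ± 0.17, SE; edgeR adjusted p = 0.00163), and its 213 to 248 CPM in control centrocytes against 84.3 to 174 CPM in control centroblasts (0.76 ± 0.17, SE; adjusted p = 0.00311). In both genotypes the cell types did not overlap. H2-DMb1 showed the largest estimate in control cells: 176, 200, 199.8 and 196 CPM in control centrocytes, against 89.7, 105, 96.9 and 84.1 CPM in control centroblasts. That is a 2.06-fold difference (log2 fold change 1.04 ± 0.13, SE; edgeR adjusted p = 1.58e-05). In mutant cells the same gene had 124 to 198 CPM in centrocytes and 88.0 to 112 CPM in centroblasts (0.65 ± 0.13, SE; adjusted p = 0.00173).

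Ciita differed by nearly the same amount in both genotypes. It had 669 to 905 CPM in mutant centrocytes and 474 to 561 CPM in mutant centroblasts (log2 fold change 0.66 ± 0.13, SE; edgeR adjusted p = 0.00219). In control cells it had 617 to 804 CPM in centrocytes and 345 to 506 CPM in centroblasts (0.67 ± 0.13, SE; adjusted p = 0.0013). The cell types were apart in both genotypes. Cd74 likewise had log2 fold changes of 0.57 ± 0.15 in mutant and 0.54 ± 0.15 in control cells (SE; edgeR adjusted p = 0.0128 and 0.0106).

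The presenting chains had larger estimates in mutant than in control cells, though no difference between them was called. The log2 fold changes of centrocytes over centroblasts were 0.62 ± 0.12 for H2-Aa, 0.54 ± 0.16 for H2-Ab1 and 0.58 ± 0.14 for H2-Eb1 in mutant cells, and 0.35 ± 0.12, 0.37 ± 0.16 and 0.40 ± 0.14 for the same genes in control cells (SE, n = 4 libraries a group). H2-Ab1 in control cells missed the threshold (edgeR adjusted p = 0.0913). H2-DMb2 and H2-Ob, a beta chain of H2-M and that of H2-O, were called in both genotypes, at 0.55 and 0.38 in mutant cells and 0.45 and 0.44 in control cells.

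**Figure D4:**
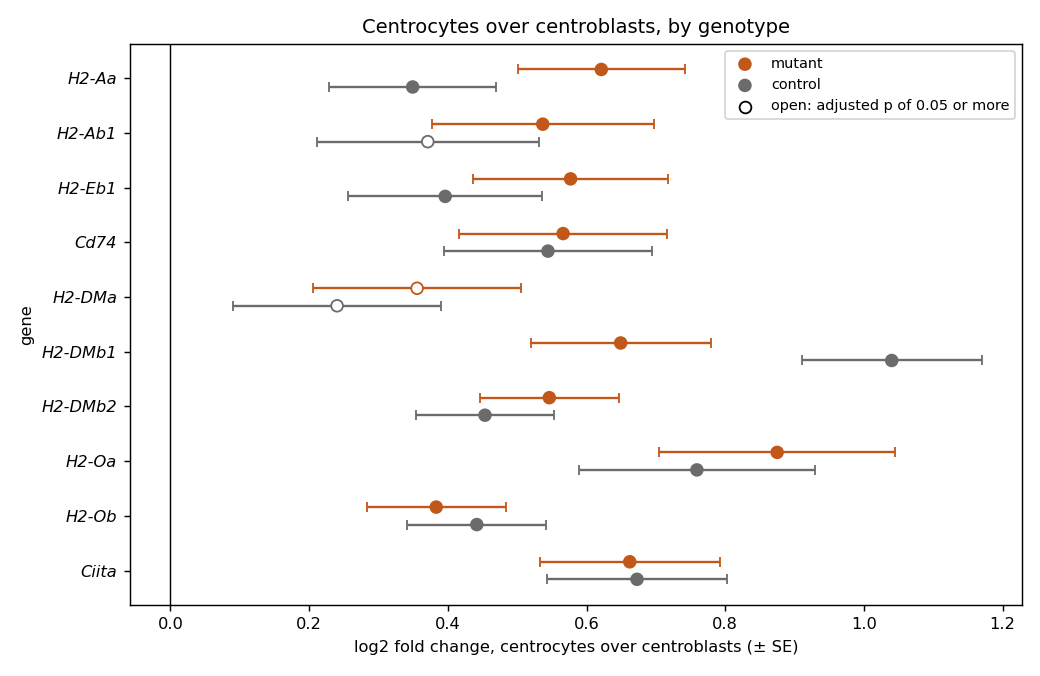
Log2 fold change of centrocytes over centroblasts (horizontal axis, bars ± SE from the edgeR fit on 16 libraries) for each gene (vertical axis) in mutant (upper symbol of each pair) and control cells (lower symbol). All 20 estimates lie above 0, between 0.24 for H2-DMa and 1.04 for H2-DMb1, both in control cells, and open symbols mark the 3 that were not called.

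Within libraries 1 and 2 alone 5 of the 10 genes were called in mutant cells and 8 in control cells, with 792 and 1205 genes of the whole table called higher. Within libraries 3 and 4 alone 2 and 3 were called, with 619 and 2013 genes of the whole table called higher. The loss within numbers 3 and 4 went with smaller estimates in control cells, at 0.08 for H2-Ab1 and -0.06 for H2-DMa, while H2-DMb1 stayed at 1.13 and Ciita at 0.64. Without mutant centrocyte libraries 3 and 4, the 2 with high macrophage genes, 8 of the 10 genes were called in mutant cells, and H2-DMb1 was then at 0.86. In the whole table, 1167 genes were then called higher, against 1360 with all libraries.

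Ratios between genes of the same library remove any scaling between libraries. Of 8 such ratios computed, 2 are given here. They were chosen after the levels had been seen, so no test is made on them. H2-Oa over H2-DMa, the alpha chains of inhibitor and exchanger, stood at 0.539, 0.531, 0.501 and 0.524 reads per read in mutant centrocytes, against 0.366, 0.370, 0.364 and 0.360 in mutant centroblasts. In control cells it stood at 0.479, 0.485, 0.517 and 0.482 in centrocytes, against 0.310, 0.334, 0.364 and 0.347 in centroblasts. All 8 centrocyte libraries were above all 8 centroblast libraries, whichever the genotype. Between genotypes the mean ratio was 0.524 in mutant and 0.491 in control centrocytes, with overlap.

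H2-DMb1 over H2-DMb2, the copies of the beta chain gene, was 0.266, 0.245, 0.216 and 0.160 in mutant centrocytes, against 0.274, 0.335, 0.334 and 0.329 in control centrocytes. The control group was the 1 group of the 4 that stood higher, since mutant centroblasts averaged 0.206 ± 0.0272 and control centroblasts 0.213 ± 0.0317 (SD, n = 4 each). The mutant and control centrocytes did not overlap. The lowest mutant values were those of libraries 3 and 4, which also held the high macrophage sums, and mutant library 1, at 0.266, stood next to the lowest control, at 0.274. The share of this ratio that comes from reads assigned between the copies was not tested.

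**Figure D5:**
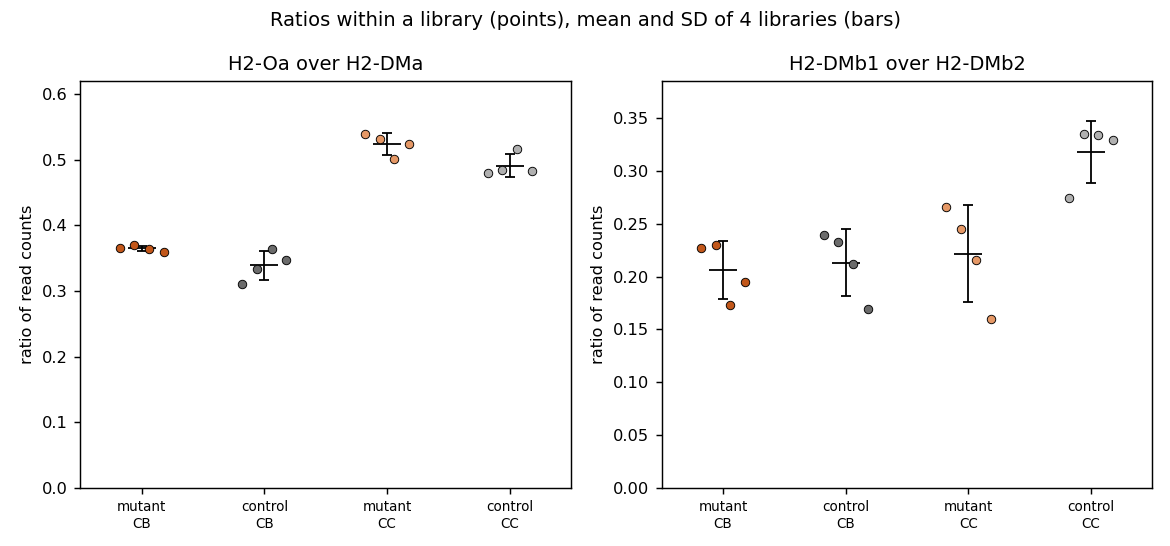
Ratio of read counts within a library for H2-Oa over H2-DMa (left) and H2-DMb1 over H2-DMb2 (right), each axis from 0, in mutant centroblasts (CB), control centroblasts, mutant centrocytes (CC) and control centrocytes. Points are libraries in the order of their numbers, and bars give the mean and SD of 4. On the left both centrocyte groups lie above both centroblast groups, and on the right the control centrocytes lie above the other groups.

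Genes that act on the class II proteins were examined as lists. Of 9 endosomal proteases and reductases that process antigen and invariant chain, 5 rose in mutant centrocytes and 3 in mutant centroblasts, against 7.37% and 4.06% of all genes called higher, and none fell. The list's median log2 fold change was 0.47 in centrocytes and 0.31 in centroblasts, against 0.00 and 0.01 over all genes. Lgmn, the asparaginyl endopeptidase that makes early cuts in the invariant chain, had 497 ± 32.9 CPM in mutant and 285 ± 23.3 CPM in control centrocytes (SD, n = 4 each; log2 fold change 0.80, edgeR adjusted p = 5.57e-05). In centroblasts it had 584 ± 25.7 CPM in mutant and 397 ± 45.4 CPM in control cells (0.56, adjusted p = 0.0012). Ctsd rose by 0.86 and 0.62 and Ctsb by 0.72 and 0.57 on the log2 scale in mutant centrocytes and mutant centroblasts, and both are lysosomal cathepsins that macrophages also hold. Ctss, the cathepsin that makes the last cut in the invariant chain in B cells, rose in mutant centrocytes (0.59, adjusted p = 0.00403) and was at 0.39 in mutant centroblasts (adjusted p = 0.0557). Between cell types the pattern was another: Ifi30, the thiol reductase of the endosome, was higher in centrocytes by 1.16 in mutant and 1.18 in control cells, while Lgmn was lower in control centrocytes than in control centroblasts (log2 fold change -0.48, adjusted p = 0.0018).

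Of the 7 subunits of the RFX, CREB and NF-Y complexes that sit on the X and Y boxes, Rfx5 rose in centrocytes, with 163 ± 12.8 CPM in mutant centrocytes and 95.1 ± 6.07 CPM in mutant centroblasts (SD, n = 4 each; log2 fold change 0.78, edgeR adjusted p = 2.39e-05). In control cells Rfx5 rose by 0.85 on the log2 scale in centrocytes (adjusted p = 7e-06), where Nfya also rose and Nfyb fell. Of all genes, 8.92% were called higher in mutant and 14.9% in control centrocytes, and 12.9% lower in control centrocytes. Between genotypes Nfya alone was called, lower in mutant centrocytes (-0.37, adjusted p = 0.0129), against 9.15% of all genes called lower there. None of the 7 rose. Of 10 factors known to act on the Ciita gene, 0 were called between genotypes in centroblasts in either direction, against 4.06% of all genes higher and 6.4% lower. There 1 was at an unadjusted p under 0.05, against 10.4% of all genes higher and 12.4% lower, and DESeq2 called 0. In centrocytes 1 of the 10 was called, against 9.15% of all genes called lower and 7.37% higher. It was Prdm1, which represses Ciita in plasma cells, at 5.14 ± 1.4 CPM in mutant and 13.1 ± 6.58 CPM in control centrocytes (SD, n = 4 each; log2 fold change -1.35, edgeR adjusted p = 0.0164), with overlapping libraries. Between cell types Irf4 rose in centrocytes by 1.12 in mutant and 1.32 in control cells, and Foxo1 fell by 0.45 in mutant and by 0.42 in control cells.

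Of 5 tested genes of class II turnover and membrane traffic, the tetraspanin Cd82 rose in both mutant cell types, by 0.65 in centrocytes and 0.62 in centroblasts (edgeR adjusted p = 0.00145 and 0.00225). The shares of all genes called higher in these comparisons were 7.37% and 4.06%. Cd83, a membrane protein that holds class II at the surface against ubiquitination by March1, was at 695 ± 12 CPM in mutant centrocytes and 216 ± 26.0 CPM in mutant centroblasts (SD, n = 4 each; log2 fold change 1.69, edgeR adjusted p = 3.5e-08). In control cells the same gene differed by 1.61, and between genotypes it was not called in either cell type. Neighbours of the H2 genes on chromosome 17 that serve other tasks were also read. The proteasome subunits Psmb8 and Psmb9, the peptide transporters Tap1 and Tap2 and the chromatin reader Brd2 were not called in any of the 4 comparisons, with genotype estimates of -0.06 to 0.21. Btnl2 was the 1 gene of this list of 8 called between genotypes, lower in mutant centrocytes (log2 fold change -0.68, edgeR adjusted p = 0.00343), against 9.15% of all genes called lower there.

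Among the 8824 tested genes with a mean of at least 3 on the log2 CPM scale, those most like the mean standardised level of H2-Aa, H2-Ab1, H2-Eb1 and Cd74 over the 16 libraries were Ncf4 (Pearson r = 0.971), Ppp1r18, Naglu, Glmp and Cyth4 (r = 0.968). Ncf4 codes for a subunit of the phagocyte NADPH oxidase and Naglu for a lysosomal enzyme. Ncf4 was called higher in mutant cells of both types (log2 fold change 0.61 in centrocytes and 0.65 in centroblasts). Those most like Ciita were others: Ticam1 (r = 0.985), Grap2, Nrros, Nfkbie and Il21r (r = 0.969). All 5 were called higher in centrocytes in both genotypes, against 8.92% of all genes in mutant and 14.9% in control cells. Ciita was called higher there too, and these 5 were picked for likeness to it, so this is not a separate result. Between genotypes 0 of these 5 were called in centrocytes by edgeR, with 0 at an unadjusted p under 0.05 and 0 by DESeq2, and in centroblasts Grap2 was called higher in mutant cells (log2 fold change 0.61, edgeR adjusted p = 0.035). EdgeR called 7.37% of all genes higher in mutant centrocytes and 4.06% in mutant centroblasts. The libraries share their groups, so these values describe likeness. With the group means removed, r was 0.817 for Cyth4 to 0.901 for Ncf4 in the first set. In the set most like Ciita it was 0.853 for Nfkbie to 0.960 for Ticam1. Both sets were picked by r over these same 16 libraries, which favours a high r within groups and similar differences between groups. The r within groups was not set against that of other genes.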

How the data were processed

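The deposited table holds read counts per gene symbol for 16 libraries, whole numbers that the authors did not normalize. Per the submitters' processing notes, Trim Galore, cutadapt, STAR 2.5.3a and featureCounts 1.4.5-p1 of Subread were used with mm10; strand and annotation are not given in the sources used here. RNA came from sorted cells through TruSeq kits, per the labels' protocols. Coordinates and lengths came from GENCODE M21 and promoter windows from RefSeq. Naive B cells are not analysed here.

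The main test was that of edgeR 4.0.16 in R 4.3.3 (filterByExpr, TMM, quasi-likelihood test, 1 mean per group over all 16 libraries, 12 residual degrees of freedom, Benjamini-Hochberg over 15240 genes, threshold 0.05), with limma 3.58.1 loaded by it and DESeq2 1.42.0 as an alternative. The edgeR step was tested on simulated data. The 92 ERCC rows, with 3 reads in all, were left out. Reads carried no molecular identifiers, so the error given is that between libraries and not a counting error.

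The genes, the pathway and marker lists and the tests were chosen with earlier results of these data known. All 10 genes are named; of each list the called members with the smallest p are named, up to 3 per comparison, and up to 2 uncalled members with the highest level, with the neighbours in the H2 region named whether called or not, and for likeness the 5 genes with the highest r. Ctss, outside this rule, was named after its values were seen. Alternatives were another normalization and tool, other filters, the groups alone, a replicate block, a term for library numbers 1 and 2 against 3 and 4, each pair of numbers alone, libraries left out, immunoglobulin genes left out and a correction of each library for GC content and length. Mutant centrocytes and centroblasts of the same number had correlated deviations from their group means (r of 0.263 to 0.327 over 4 numbers). Unlike numbers were not compared, and the Y-linked split between numbers 1 and 2 and numbers 3 and 4 runs through every group. This check therefore cannot show whether a number marks 1 mouse. In control mice the same check gave -0.0059, 0.395, 0.452 and 0.134 for numbers 1 to 4, so 3 of 4 were over 0.1 and the criterion, over 0.1 at every number, was missed at number 1. Between genotypes it gave -0.0886 to 0.344, and the criterion was missed in both cell types.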

Additional observations from a re-analysis of the deposited data

Results flagged for a closer look

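Of 40 sets of 4 libraries (10 genes in 4 groups), 4 held a library whose gap to its nearest neighbour was large against the range of the group. Chance gives about 1 in 20 for a single set. The genes of a group share their libraries, so the 40 sets are not independent and no excess is read from this count. In control centrocytes it was library 1 for 3 genes: H2-Aa was high at 3849.9 CPM, H2-DMb2 high at 642 CPM and H2-DMb1 low at 176 CPM. Library 1 of the control centrocytes was the highest of its group for 7 of the 10 genes. In mutant centroblasts library 3 was low for H2-DMb1, at 88.0 CPM.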

How the results depend on the processing

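For centroblasts, mutant over control, the pooled edgeR fit called 0 of the 10 genes. DESeq2, a filter of at least 1 CPM and a term for library numbers 1 and 2 against 3 and 4 each called 1. Numbers 1 and 2 alone called 5, and the correction for GC content and length called 6, with or without the replicate block. Leaving out single libraries gave 0 to 6. For centrocytes, mutant over control, 5 were called. Numbers 1 and 2 alone called 0, leaving out mutant centrocyte libraries 3 and 4 called 1, and leaving these and control centroblast library 1 out called 2, the last chosen after seeing the data. The correction called 9, and 10 with the replicate block (also chosen after seeing the data; H2-DMb1 then lower). Leaving out single libraries gave 1 to 7. For centrocytes over centroblasts, numbers 1 and 2 alone called 5 of the mutant 9 and numbers 3 and 4 alone called 2, while numbers 3 and 4 alone called 3 of the control 8; single libraries left out gave 6 to 10 in mutant and 6 to 9 in control cells. The interaction called 0 in every fit. The causes of these moves were not tested.

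The replicate block took 2 forms. For the genotype comparisons it was the library number, shared by mutant and control mice, although the check on numbers between genotypes missed its criterion. For the cell types and the interaction it was the number within each genotype. The block called 0 genes in centroblasts, 4 in centrocytes (H2-DMa lost, adjusted p = 0.0543), 9 in mutant and 8 in control cells for the cell types, and 0 for the interaction; it changed no other call. The smaller sets of libraries hold fewer samples. Ciita in centrocytes turned to -0.01, and H2-DMa between control cell types to -0.06, within numbers 3 and 4 alone. The remaining turns of direction were in the interaction, where no gene was called. Within numbers 1 and 2 alone it was -0.01 for H2-Aa, -0.27 for H2-Ab1, -0.13 for H2-Eb1, -0.27 for H2-DMa, -0.31 for H2-Oa, 0.06 for H2-Ob, -0.26 for Cd74 and 0.05 for Ciita. Without mutant centrocyte libraries 3 and 4 it was 0.02 for H2-Ob and 0.06 for Ciita. Ciita was at 0.06 with the correction, with and without the block, and at 0.15 without control centroblast library 1 and mutant centrocyte libraries 3 and 4. Cd74 was at -0.01 with the replicate block. With single libraries left out, the interaction ran over -0.01 to 0.26 for H2-DMa, -0.02 to 0.29 for H2-Oa, -0.08 to 0.16 for Cd74 and -0.09 to 0.10 for Ciita.

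Over all genes, the centroblast comparison called 1595 (1056 with its groups alone, 506 within numbers 3 and 4, 2896 with the correction, 3092 with correction and block). The centrocyte comparison called 2517 (895 within numbers 1 and 2, 1224 without mutant centrocyte libraries 3 and 4, 4480 with the correction, 4738 with correction and block, 1601, 1646 and 1641 without control centrocyte library 2, 3 or 4). Between cell types 2438 were called in mutant cells (1353 and 1060 within numbers 1 and 2 and numbers 3 and 4, 4174 with the correction, 4859 with correction and block; 1360 higher and 1078 lower, against 1661 and 2513 with the correction) and 4230 in control cells (2007 within numbers 1 and 2, 6674 with correction and block; 2270 higher and 1960 lower, against 2302 and 3699 with the correction).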

Other observations

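Within the control centroblasts H2-Ob was highest in library 1 (798 CPM), where the summed macrophage markers were lowest (30.6 CPM), and lowest in library 4 (635 CPM), where they were highest of that group (95.1 CPM). H2-Oa, whose product pairs with that of H2-Ob, ran the other way in the same libraries, with 84.3 CPM in library 1 and 174 CPM in library 4. The part of other cells in these values was not tested.

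H2-Ea-ps, the pseudogene of the I-E alpha chain, averaged 0.312 CPM in mutant centrocytes, 0.349 CPM in control centrocytes, 0.556 CPM in mutant centroblasts and 0.372 CPM in control centroblasts. H2-Eb2, a further beta chain gene of the region, averaged 277 ± 27.5 CPM in mutant and 245 ± 31.4 CPM in control centrocytes, and 217 ± 18.4 CPM in mutant and 219 ± 32.9 CPM in control centroblasts (SD, n = 4 each), and was not called in any of the 4 comparisons.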
